A study of Mus musculus with 12 samples.

Results

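The genes examined here encode 3 families of zinc-dependent proteases and the inhibitors that hold them in check: the matrix metalloproteinases (MMPs), the ADAMs, the ADAMTS proteases and the tissue inhibitors of metalloproteinases (TIMPs). They were taken by gene symbol alone, as every gene named Mmp, Adam or Adamts followed by a number, and *Timp1* to *Timp4*. This gave 74 of the 19057 genes with a probe of 1 gene symbol on the array: 4 TIMPs, 21 MMPs, 32 ADAMs and 17 ADAMTS genes. The values come from Illumina MouseWG-6 v2.0 arrays of 12 samples, 1 array per sample, in 3 groups of 4. NdpKO;Ptch+/- medulloblastomas (MBs) lack Norrin, the secreted ligand encoded by the X-linked gene *Ndp*, through a lacZ cassette in the locus, and carry 1 mutated copy of the Hedgehog receptor gene Ptch; their strain background is given as mixed. Ptch+/- MBs carry the same Ptch mutation with *Ndp* intact, on C57Bl/6. Wild-type (WT) granule neuron progenitors (GNPs), the cells from which this tumor arises, were purified from C57Bl/6 cerebella at postnatal day 6 on a percoll gradient with pre-plating, whereas no such purification is described for the tumors. The GNP profiles are described as those of 4 animals per group. The ages of the tumor-bearing mice, and whether each tumor came from a separate animal, are not given in the sources used here. A p-value therefore reflects only how far these samples scatter, which may be technical in part. The study reports a shorter mean tumor latency in NdpKO;Ptch+/- than in Ptch+/- mice, so the tumor groups may also differ in age.

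MMPs cleave collagens, laminins and other matrix proteins, and most are secreted as inactive precursors or anchored to the membrane. ADAMs are membrane proteins that release the outer parts of other membrane proteins, among them growth factors and Notch receptors, although some members have lost the catalytic site and act as adhesion or receptor proteins. ADAMTS enzymes are secreted and cut proteoglycans and procollagens. TIMPs bind the active site of MMPs and also of some ADAMs and ADAMTS enzymes, *Timp3* most broadly. In the brain these proteases are known for their parts in vessel sprouting, the blood brain barrier and cell migration.

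All values are normalized log2 signals. Probes without signal read about 4.1, the floor of the scale, and 4.5 was used as the background limit. Of the 74 genes, 26 reached 4.5 on at least 1 array and 48 on none. Their mean reached 4.5 for 21 genes among the NdpKO;Ptch+/- MBs, 23 among the Ptch+/- MBs and 22 among the GNPs. All 4 TIMPs were detected, with 9 of 21 MMPs, 6 of 32 ADAMs and 7 of 17 ADAMTS genes. The largest group at the floor was that of the 21 ADAMs known mainly from testis and epididymis, none of which exceeded 4.28 on any array. Chromosome 8 holds 14 ADAM genes, of which *Adam9* was detected, and chromosome 9 holds 9 of the MMPs, of which *Mmp1a* and *Mmp3* were. The other secreted MMPs there, among them the collagenases *Mmp8* and *Mmp13*, the macrophage elastase *Mmp12* and matrilysin, *Mmp7*, stayed at the floor. *Adam10*, a widely expressed sheddase, gave no more than 4.24 on any array with either of its 2 probes, which is a statement about these probes. Signals of different genes come from different probes and are not ranked against each other.

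Arrays of 1 group correlated with Pearson's r between 0.984 and 0.996 across probes. The *Ndp* probe lay at the floor on all 12 arrays, so it could not check the knockout. The Y-linked gene *Eif2s3y* gave 4.21 in Ptch+/- MB replicate 1 and 9.82 to 10.5 on the other 11 arrays, and results for the X-linked *Timp1* are therefore given without that tumor too. *Kdm5d*, also Y-linked, was detected in that tumor, at 6.17 against 5.35 to 7.25 elsewhere. The *Xist* probe was at the floor on all 12 arrays, so the sex of the animal is not settled. By the study's methods NdpKO;Ptch+/- mice are all males, whereas the control genotypes include both sexes. Sex may therefore differ between the tumor groups along with genotype. Of the granule lineage markers, *Zic1*, *Zic2*, *Barhl1*, *Meis1* and *Neurod1* were detected on all arrays. The *Atoh1* and *Mycn* probes stayed at the floor in GNPs as well as tumors. *Pax6* read 5.49 to 6.69 in GNPs, 4.70 to 5.93 in NdpKO;Ptch+/- MBs and 4.15 to 4.71 in Ptch+/- MBs. Against GNPs, *Pax6* and *Neurod1* passed as lower in Ptch+/- MBs (limma adjusted p = 0.00738 and 0.0134) and *Barhl1* as higher (limma adjusted p = 0.0207). In NdpKO;Ptch+/- MBs *Zic2* passed as lower (limma adjusted p = 0.0213). In whole tumor RNA, fewer cells of a type and less RNA per cell cannot be told apart.

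The question put to the tumors of both genotypes was which of these genes differed when Norrin was absent. *Timp1*, which encodes a broad secreted inhibitor of MMPs and is induced in reactive glia and fibroblasts, was lower in NdpKO;Ptch+/- MBs, with a log2 fold change of -3.09. It was the 1 member of 74 that passed the test, and none was higher. An unadjusted p under 0.05 was met by 8 members, among them *Adamts17*, *Adam4*, *Adam18* and *Adamts3*, which were at the floor on all arrays. The share of all genes at that unadjusted threshold was not computed, so this count is not read as an excess. Over all genes, 0.808% passed as higher and 1.26% as lower in the same comparison. *Mmp2*, a gelatinase, and *Timp2*, an inhibitor that also takes part in the activation of pro-*Mmp2*, were lower by about 1 log2 unit without passing. Over the 74 members the median log2 fold change was -0.00122, against 0.000701 over all genes, and 49 members lay at the floor on all arrays of both groups.

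*Timp1* is shown with the sequence before its start because both of its probes moved and because it lies, on the opposite strand, inside the gene *Syn1*. The 3 upstream sequences given in this report come from RefSeq (build GRCm38.p6), run 5′ to 3′ toward the gene, and end at the base before the annotated start. The 250 bases before *Timp1* lie at chrX:20869916-20870165 on the plus strand:
Timp1: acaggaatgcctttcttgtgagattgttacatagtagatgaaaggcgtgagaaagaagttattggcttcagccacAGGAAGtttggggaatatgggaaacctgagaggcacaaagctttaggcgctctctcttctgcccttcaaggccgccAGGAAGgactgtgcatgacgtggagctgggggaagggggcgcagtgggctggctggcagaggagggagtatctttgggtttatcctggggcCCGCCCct

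Capitals mark matches to short motifs searched on both strands: TGANTCA, the core bound by AP-1 factors, AGGAAG, a PEA3/ETS core, GGGCGG, the SP1 core, GACCACCCA, the GLI core, and ATCAAAG, a TCF core. Matches that overlapped were allowed, and a match is letters only and not a site. The *Timp1* window holds AGGAAG at 175 and 99 bases before the start, and CCGCCC, the SP1 core read on the other strand, at 8 bases before it. Of 32851 windows of the same length in the table, 29.5% hold the PEA3 core, 32.7% the SP1 core, 6.75% the AP-1 core, 3.21% the TCF core and 0.225% the GLI core. The table covers 45 of the 74 members with 48 windows. Of these 48, 11 (22.9%) hold the AP-1 core, 19 (39.6%) the PEA3 core and 18 (37.5%) the SP1 core, while 1 holds the TCF core and 0 the GLI core. Among the 17 detected members in the table, *Mmp1a* and *Mmp3* hold the AP-1 core, so that 9 of the 11 windows with it belong to genes at the floor.

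The *Timp1* probe read 4.40, 5.43, 6.39 and 4.48 in NdpKO;Ptch+/- MB replicates 1 to 4. It read 7.89, 7.41, 8.85 and 8.92 in the Ptch+/- MBs. In GNPs it read 4.67, 4.45, 4.57 and 4.45. Every Ptch+/- MB thus lay above every NdpKO;Ptch+/- MB, and 2 of the latter were under the background limit while the other 2 stood above all GNP arrays. The means were 5.18 ± 0.94 (SD, n = 4 arrays) and 8.27 ± 0.74 in the tumors and 4.54 ± 0.11 in GNPs. The fitted difference between the tumor genotypes was -3.09 ± 0.47 (SE; limma adjusted p = 0.0164), a fitted 8.52-fold. The second *Timp1* probe gave 4.23, 4.63, 5.53 and 4.22 in NdpKO;Ptch+/- MBs and 7.33, 6.95, 8.55 and 8.84 in Ptch+/- MBs, with a difference of -3.27 (limma adjusted p = 0.00972). Without Ptch+/- MB replicate 1 the difference at the first probe was -3.22 (limma adjusted p = 0.0320). The GNPs, which vary least, share the estimate of the spread: fitted on the tumors alone, the same difference had an adjusted p of 0.129 in limma.

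*Timp1* was the only member on the X chromosome. Between *Ndp* and *Timp1* the reference annotation places 17 protein-coding genes, of which 15 were measured and 8 detected. Of these, 0 were lower in NdpKO;Ptch+/- MBs and 1, *Chst7*, a sulfotransferase, was higher. Over all genes 1.26% passed as lower and 0.808% as higher, so nothing can be read from the count in so few genes. *Syn1*, the neuronal host gene of *Timp1*, read 9.68 to 10.8 in NdpKO;Ptch+/- MBs and 9.88 to 10.6 in Ptch+/- MBs. Its arrays overlap between the genotypes. Mean signals of the fibroblast and meningeal marker list ran from 5.83 to 6.27 in NdpKO;Ptch+/- MBs and from 6.35 to 6.91 in Ptch+/- MBs, with 8 of 9 markers detected, 0 passing in either direction and *Aldh1a2* at the floor. The astrocyte list ran from 8.30 to 9.05 and from 8.33 to 9.89, all 7 markers detected and 0 passing. The endothelial list ran from 6.63 to 7.43 and from 6.03 to 6.88, with 7 of 9 markers detected. Of these 1, *Emcn*, passed as higher in NdpKO;Ptch+/- MBs (limma adjusted p = 0.0321). The mural list ran from 5.80 to 6.20 and from 5.21 to 5.66, with 5 of 7 markers detected and 0 passing. The part of any of these cell types in the *Timp1* difference was not tested.

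*Timp2* read 9.11, 8.70, 8.48 and 9.40 in NdpKO;Ptch+/- MBs and 9.37, 10.22, 9.68 and 10.16 in Ptch+/- MBs. NdpKO;Ptch+/- MB replicate 4 lay within the range of the Ptch+/- MBs. The difference was -0.93 ± 0.26 (SE; limma adjusted p = 0.147), with a 95% interval from -1.52 to -0.34. The GNPs, at 9.54, 9.82, 9.14 and 9.11, overlapped both tumor groups, and neither difference from them passed.

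**Figure D1:**
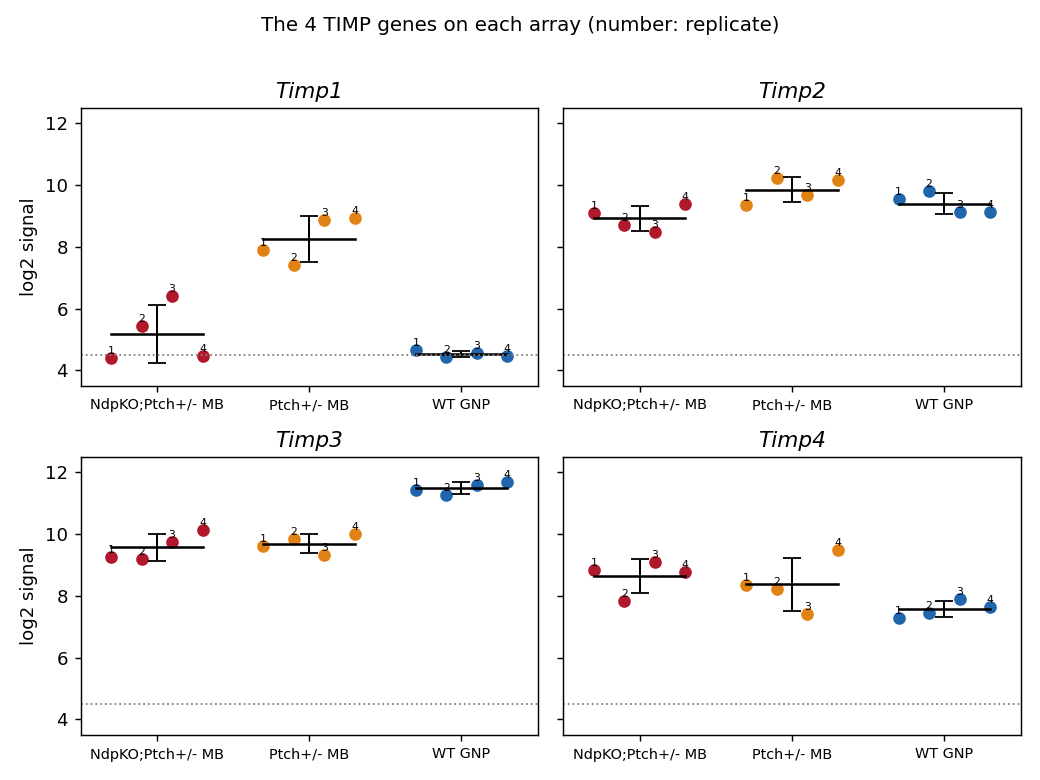
Log2 signal (vertical axis) of the 4 TIMP genes on each of the 12 arrays. Points are single arrays marked with their replicate number, bars show the mean ± SD of 4 arrays, and the dotted line is the background limit of 4.5. *Timp1* stands apart in Ptch+/- MBs at 7.41 to 8.92, and *Timp3* stands apart in GNPs at 11.26 to 11.68.

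Of the 26 detected members, 4 had every Ptch+/- MB above every NdpKO;Ptch+/- MB, and 0 the reverse, against 7.59% and 7.42% of all detected genes. They were *Timp1*, *Mmp2*, *Mmp3* and *Mmp9*, the last with all tumors under the limit. *Mmp2* read 9.01, 8.17, 8.23 and 9.26 in NdpKO;Ptch+/- MBs and 9.80, 9.41, 9.44 and 9.90 in Ptch+/- MBs. The difference was -0.97 ± 0.25 (SE; limma adjusted p = 0.110; 95% interval -1.53 to -0.42) and did not pass. Decorin (*Dcn*), a matrix proteoglycan of fibroblasts and meninges, read 9.51, 8.48, 9.06 and 9.99 in NdpKO;Ptch+/- MBs and 11.88, 10.66, 10.35 and 11.10 in Ptch+/- MBs, with a difference of -1.74 (limma adjusted p = 0.0610). In both genes the higher NdpKO;Ptch+/- MBs were replicates 1 and 4. Of the other fibroblast and meningeal markers, *Lum* had the same 2 tumors highest, at 6.06, 4.53, 4.74 and 7.27. *Fn1*, at 7.19, 7.24, 7.73 and 6.01, and *Pdgfra*, at 12.11, 11.52, 12.19 and 12.16, did not. The remaining markers of that list were under the limit in these tumors. The part of fibroblasts and meningeal cells in the *Mmp2* signal was not tested.

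*Adam17*, the sheddase that releases TNF and several EGF receptor ligands, had the fourth smallest unadjusted p of the members between the tumor genotypes. It read 8.76, 8.88, 8.82 and 8.61 in NdpKO;Ptch+/- MBs and 8.34, 8.35, 8.52 and 8.63 in Ptch+/- MBs, which overlap. The difference of 0.31 ± 0.10 (SE; limma adjusted p = 0.193) did not pass. The remaining 8 of the 12 members with the smallest unadjusted p in this comparison were *Adamts17*, *Adam4*, *Adam18*, *Adamts3*, *Adam10*, *Adamts16*, *Mmp3* and *Mmp10*. All but *Mmp3* were at the floor on every array, with differences between -0.01 and 0.06, and no direction can be read from them.

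The question put to the tumors and GNPs was which proteases and inhibitors set the tumors apart from their normal counterpart. In Ptch+/- MBs 3 members passed as higher and 3 as lower, against 10.3% and 10.9% of all genes. In NdpKO;Ptch+/- MBs 2 passed as higher and 3 as lower, against 7.69% and 7.98%. *Mmp2* was higher, and *Timp3*, *Mmp17* and *Adamts4* were lower, in both tumor groups, which share the same 4 GNP arrays. *Timp1* passed in Ptch+/- MBs and *Adam17* in NdpKO;Ptch+/- MBs. The third call in Ptch+/- MBs, *Adam2*, a sperm surface gene, rested on a difference of 0.02 between arrays that all read 4.12 to 4.16, at the floor, and no direction can be read from it.

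By family, the calls were spread thinly. Of the 4 TIMPs, 1 was higher and 1 lower in Ptch+/- MBs, and 0 higher and 1 lower in NdpKO;Ptch+/- MBs. Of the 21 MMPs, 1 was higher and 1 lower in each. The 32 ADAMs had 1 higher in each, counting *Adam2*, and 0 lower. The 17 ADAMTS genes had 0 higher and 1 lower in each. Family medians of the log2 fold change lay between -0.00489 and 0.00324 for MMPs, ADAMs and ADAMTS genes in the 3 comparisons, and most of these genes were at the floor. Those of the 4 TIMPs were -0.52 between the tumor genotypes, 0.63 in Ptch+/- MBs and 0.08 in NdpKO;Ptch+/- MBs against GNPs.

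**Figure D2:**
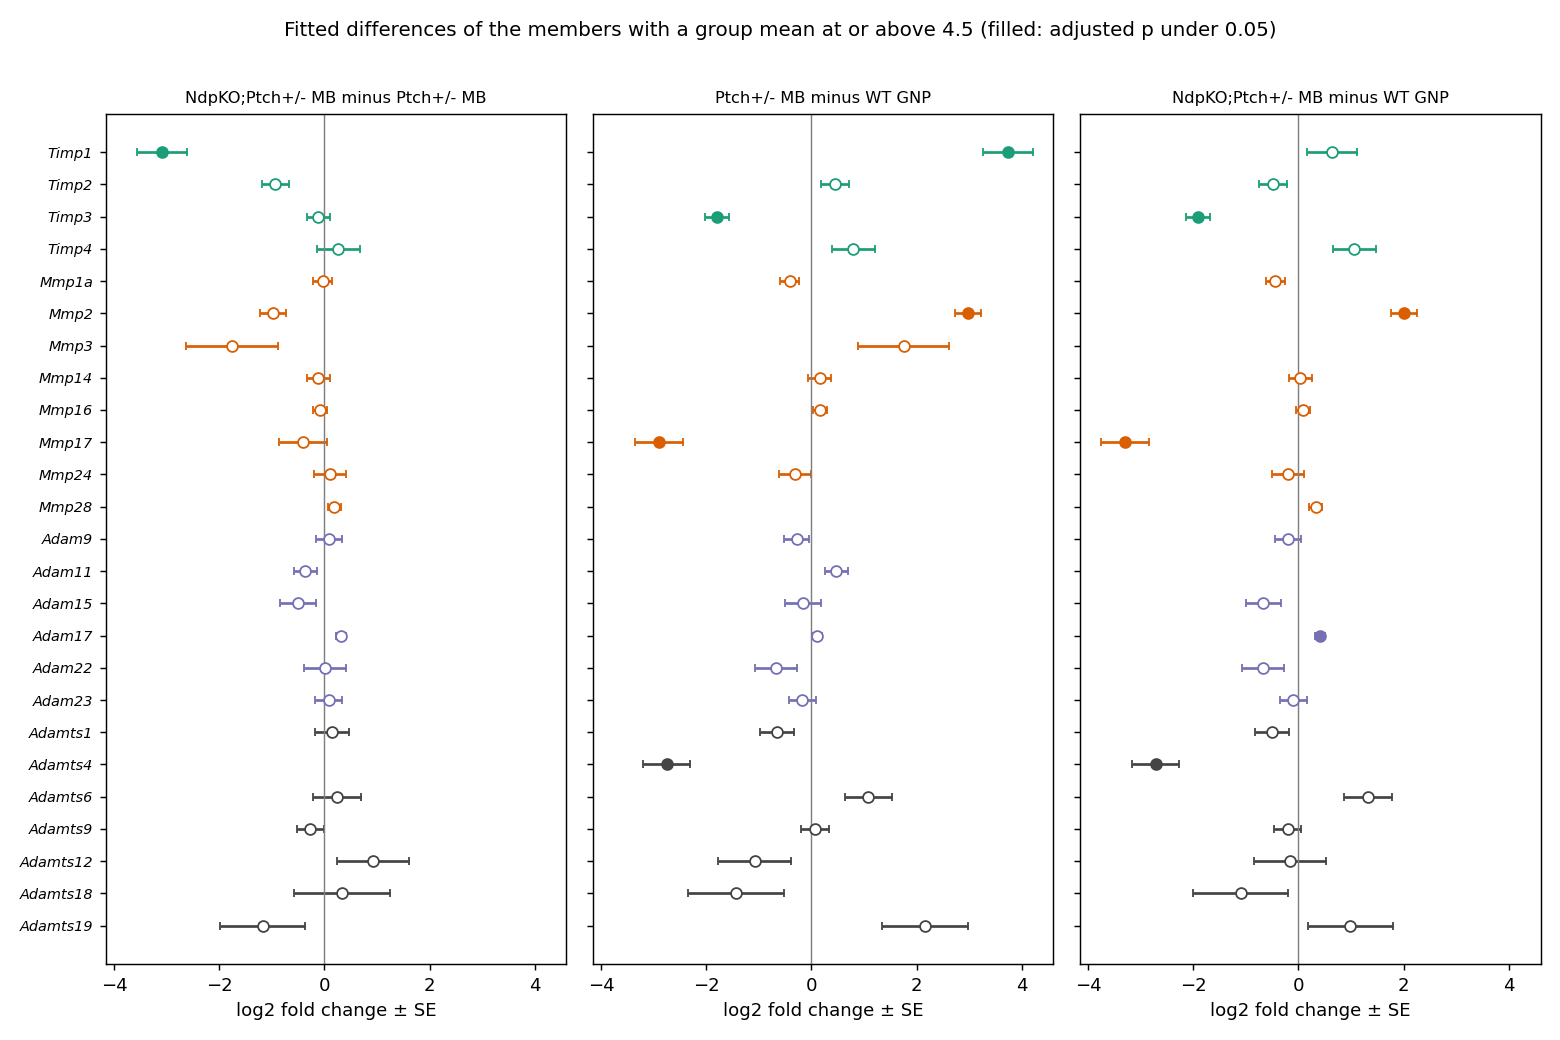
Log2 fold change ± SE (horizontal axis) of the 25 members with a group mean at or above 4.5, in each of the 3 comparisons. Filled points have a limma adjusted p under 0.05, and members with both groups under the limit are left out, so that 24, 24 and 23 members are drawn. *Timp1* is the only filled point between the tumor genotypes.

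*Mmp2* rose in tumors of both genotypes. It read 6.63, 6.52, 6.90 and 6.59 in GNPs, under every tumor of either genotype. The difference was 2.98 ± 0.25 (SE; 7.88-fold, limma adjusted p = 4.07e-05) in Ptch+/- MBs and 2.01 ± 0.25 (SE; 4.02-fold, limma adjusted p = 0.000676) in NdpKO;Ptch+/- MBs. Of the other gelatinase, *Mmp9*, 1 of 12 arrays reached the limit, GNP replicate 3 at 4.65. Of the 9 fibroblast and meningeal markers, 2 were higher and 2 lower in Ptch+/- MBs, and 1 higher and 3 lower in NdpKO;Ptch+/- MBs. *Pdgfra*, a marker of fibroblasts and of oligodendrocyte precursors, was higher in both, at 11.3 to 11.4 in GNPs against 11.5 to 12.6 in tumors, and the other higher call, *Aldh1a2*, was at the floor. *Col3a1*, a fibrillar collagen, read 4.68 to 6.47 in GNPs and no more than 4.37 in tumors, and was lower in both (limma adjusted p = 0.0213 in Ptch+/- MBs and 0.0247 in NdpKO;Ptch+/- MBs), as was *Foxc1*, at no more than 4.52 on any array. *Dcn*, given above, lay at 10.57 to 11.01 in GNPs and passed as lower in NdpKO;Ptch+/- MBs (limma adjusted p = 0.0287). Mean signals of the list ran from 6.45 to 6.73 in GNPs.

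*Timp1* in Ptch+/- MBs exceeded GNPs by 3.73 ± 0.47 (SE; a fitted 13.3-fold, limma adjusted p = 0.000581). In NdpKO;Ptch+/- MBs the difference was 0.64 ± 0.47 (SE; limma adjusted p = 0.462), with a 95% interval from -0.42 to 1.71. The test of the difference between these effects is the comparison of the tumor genotypes given above. The 2 GNP arrays at 4.45 and the NdpKO;Ptch+/- MBs at 4.40 and 4.48 lie under the limit, so these folds are fitted values.

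*Timp3* moved the other way. It encodes the inhibitor that binds to the matrix, and it is the one that also blocks *Adam17*, ADAMTS proteoglycanases and the VEGF receptor. Its upstream window is shown because *Timp3*, like *Timp1*, sits inside a synapsin gene, and its host moved with it. The 250 bases lie at chr10:86300162-86300411 on the plus strand:
Timp3: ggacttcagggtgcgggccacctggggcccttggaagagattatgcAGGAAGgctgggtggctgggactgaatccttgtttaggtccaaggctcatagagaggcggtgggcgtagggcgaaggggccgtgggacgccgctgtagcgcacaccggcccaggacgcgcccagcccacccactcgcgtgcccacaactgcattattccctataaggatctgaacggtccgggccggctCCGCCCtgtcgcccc

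The capitals mark AGGAAG at 204 bases before the start and CCGCCC, the SP1 core read on the other strand, at 15 bases. *Timp3* read 9.25, 9.18, 9.76 and 10.12 in NdpKO;Ptch+/- MBs and 9.61, 9.85, 9.31 and 9.99 in Ptch+/- MBs. In GNPs it read 11.43, 11.26, 11.59 and 11.68, so that every GNP array lay above every tumor. The difference from GNPs was -1.92 ± 0.22 (SE; 3.77-fold lower, limma adjusted p = 0.000501) in NdpKO;Ptch+/- MBs and -1.80 ± 0.22 (SE; 3.48-fold lower, limma adjusted p = 0.000515) in Ptch+/- MBs. The tumor genotypes differed by -0.12 (limma adjusted p = 0.910; 95% interval -0.62 to 0.39).

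A second *Timp3* probe gave 6.20 to 6.80 in GNPs and stayed under 4.5 in all 8 tumors, at least 4.16-fold lower in each tumor group (limma adjusted p = 1.29e-06 in Ptch+/- MBs and 1.98e-06 in NdpKO;Ptch+/- MBs). The third probe was at the floor on all arrays. *Syn3*, the gene around *Timp3*, read 5.77, 5.17, 6.47 and 6.58 in GNPs and no more than 4.37 in any tumor, at least 2.83-fold lower (limma adjusted p = 0.00145 in Ptch+/- MBs and 0.00216 in NdpKO;Ptch+/- MBs). Whether transcripts of the host gene reach either *Timp3* probe was not tested. *Syn1* and *Syn2*, the hosts of *Timp1* and *Timp4*, passed in none of the comparisons.

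*Timp4*, the inhibitor with the most restricted tissue range, had higher means in tumors but passed in neither comparison with GNPs. It read 7.30, 7.45, 7.89 and 7.65 in GNPs, 8.84, 7.85, 9.10 and 8.77 in NdpKO;Ptch+/- MBs and 8.35, 8.24, 7.42 and 9.49 in Ptch+/- MBs. 1 tumor of each genotype lay within the range of the GNPs. The differences were 1.06 ± 0.41 (SE; limma adjusted p = 0.140) and 0.80 ± 0.41 (SE; limma adjusted p = 0.240).

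Among the membrane-type MMPs, *Mmp17*, which is held by a lipid anchor and is known from neurons and myeloid cells, was lower in both tumor groups. It read 7.57, 7.50, 8.25 and 8.34 in GNPs. In NdpKO;Ptch+/- MBs it read 5.03, 4.31, 4.82 and 4.27, and in Ptch+/- MBs 4.25, 4.24, 6.33 and 5.24. Every tumor lay under every GNP array, and 2 tumors of each genotype lay under the limit. The fitted differences were -3.31 ± 0.45 (SE; limma adjusted p = 0.00124) and -2.90 ± 0.45 (SE; limma adjusted p = 0.00196). Of the other members of this class, named to complete it, *Mmp14*, which activates pro-*Mmp2* at the cell surface, read 10.29 to 11.44 over all 12 arrays, and *Mmp24*, known from neurons, 11.67 to 13.17. By these probes both passed in none of the comparisons, with adjusted p in limma from 0.575 to 0.951. A second *Mmp14* probe, at the floor on all arrays, passed as higher in Ptch+/- MBs by 0.02 (limma adjusted p = 0.0290), as did a dim *Adamts16* probe in the other direction, and no direction can be read from either. *Mmp25* was at the floor.

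The probes of *Mmp16*, a transmembrane member expressed in brain, disagreed, and the gene was chosen for mention after its values were seen. Its brighter probe read 8.39 to 9.02 on all arrays, with 0 of the 3 comparisons passing. A dimmer probe read 6.61, 6.40, 6.84 and 6.98 in GNPs, 4.89, 5.72, 5.50 and 5.21 in NdpKO;Ptch+/- MBs and 5.09, 4.40, 5.99 and 4.56 in Ptch+/- MBs. By this probe the tumors were lower, by -1.38 (limma adjusted p = 0.0241) and -1.70 (limma adjusted p = 0.00684), and the third probe was at the floor. No direction is given for *Mmp16* as a gene.

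**Figure D3:**
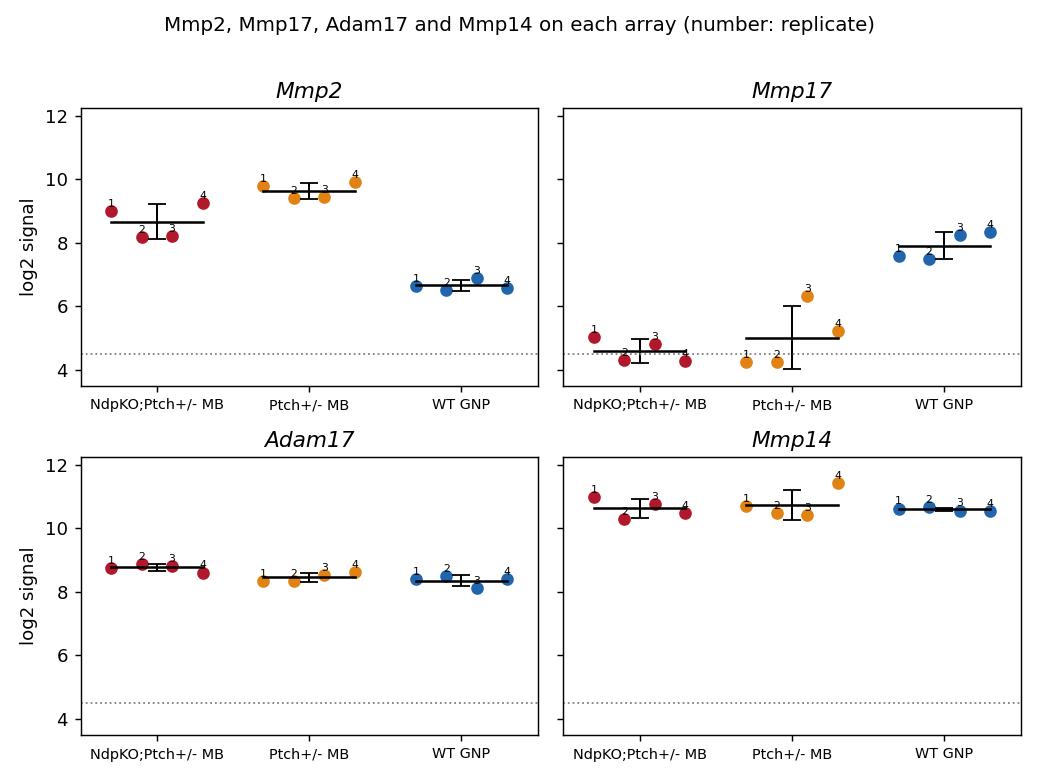
Log2 signal (vertical axis) of *Mmp2*, *Mmp17*, *Adam17* and *Mmp14* on each of the 12 arrays. Points are single arrays marked with their replicate number, bars show the mean ± SD of 4 arrays, and the dotted line is the background limit. *Mmp2* runs from 6.52 to 6.90 in GNPs and from 8.17 to 9.90 in tumors, *Mmp17* runs the other way, and *Mmp14* overlaps in all 3 groups.

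*Adam17* read 8.42, 8.51, 8.11 and 8.40 in GNPs, under all 4 NdpKO;Ptch+/- MBs. The difference was small, at 0.41 ± 0.10 (SE; 1.33-fold, limma adjusted p = 0.0222). In Ptch+/- MBs it was 0.10 ± 0.10 (SE; limma adjusted p = 0.561). The call was lost when NdpKO;Ptch+/- MB replicate 1, 2 or 3 was left out. The second *Adam17* probe was scattered, with Ptch+/- MB replicates 2 and 4 at no more than 5.01 against 7.39 and 7.38 in replicates 1 and 3, and it passed nowhere.

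The other ADAMs with a signal did not pass. *Adam9* and *Adam15*, sheddases of many tissues, read 7.84 to 9.12 and 5.15 to 7.28 over all arrays. *Adam11*, *Adam22* and *Adam23* lack the catalytic site and are receptors of the synaptic Lgi proteins or their relatives. *Adam23* read 9.28 to 10.61, with all 3 groups overlapping. *Adam22* read 5.22 to 5.99 in GNPs and 4.42 to 4.71 in NdpKO;Ptch+/- MBs other than replicate 4, at 6.32, and *Adam11* reached 5.54 in 1 tumor and at most 4.33 in GNPs. Their adjusted p in limma against GNPs ran from 0.189 to 0.867.

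*Adamts4*, a proteoglycanase that cuts aggrecan and brevican and is known from oligodendrocytes in the adult brain, was lower in both tumor groups. It read 5.76, 7.16, 8.40 and 7.23 in GNPs, 4.23, 4.39, 4.76 and 4.30 in NdpKO;Ptch+/- MBs and 4.40, 4.42, 4.19 and 4.52 in Ptch+/- MBs. Thus 6 of the 8 tumors lay under the limit, and all lay under the lowest GNP array. The fitted differences were -2.72 ± 0.44 (SE; limma adjusted p = 0.00322) in NdpKO;Ptch+/- MBs and -2.76 ± 0.44 (SE; limma adjusted p = 0.00219) in Ptch+/- MBs.

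The level of *Adamts4* varied among the GNP arrays, and that of *Mog*, a myelin gene of mature oligodendrocytes, varied with it. *Mog* read 4.28, 6.93, 8.48 and 7.41 in the same 4 GNP arrays and no more than 4.16 in any tumor. GNP replicate 1 was lowest and replicate 3 highest for both genes. *Mog* is 1 of the 7 measured markers of its list, and the order of the GNP arrays is given for it alone. *Mbp*, myelin basic protein, read 12.38 to 13.31 in GNPs and 7.65 to 10.15 in tumors. *Cnp*, another myelin gene, read 9.02 to 9.94 and 4.68 to 7.51. These 3 markers of mature cells were lower in both tumor groups. Of the same list 2 passed as higher in both, *Olig1*, a factor of the early lineage, at 11.03 to 12.19 in GNPs and 12.68 to 13.57 in tumors (limma adjusted p = 0.00350 in Ptch+/- MBs and 0.00438 in NdpKO;Ptch+/- MBs), and *Pdgfra*. Mean signals of the whole oligodendrocyte lineage list, all 7 measured markers of which were detected, ran from 8.73 to 9.85 in GNPs, from 8.10 to 8.68 in NdpKO;Ptch+/- MBs and from 7.66 to 8.64 in Ptch+/- MBs. *Sox10*, a factor of the whole lineage, overlapped in all 3 groups, at 7.63 to 10.13. The part of oligodendrocytes in the GNP preparations in the *Adamts4* difference was not tested.

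Of the other 5 measured proteoglycanases, *Adamts1*, named to complete the class, read 6.74 to 7.89 in GNPs and 6.21 to 7.33 in tumors, and *Adamts9* stayed between 4.31 and 5.61. Neither passed. *Adamts8*, *Adamts15* and *Adamts20* were at the floor, as were the procollagen N-proteinases *Adamts3* and *Adamts14*. *Adamts6* read 4.47, 4.51, 4.70 and 5.41 in GNPs and 5.44, 6.60, 6.61 and 5.74 in NdpKO;Ptch+/- MBs, with no overlap. The difference was 1.33 ± 0.45 (SE; limma adjusted p = 0.0954). Ptch+/- MBs, at 6.20, 6.62, 6.01 and 4.60, overlapped both groups, and the tumor genotypes differed by 0.24 (limma adjusted p = 0.906). The gene was chosen after its values were seen.

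**Figure D4:**
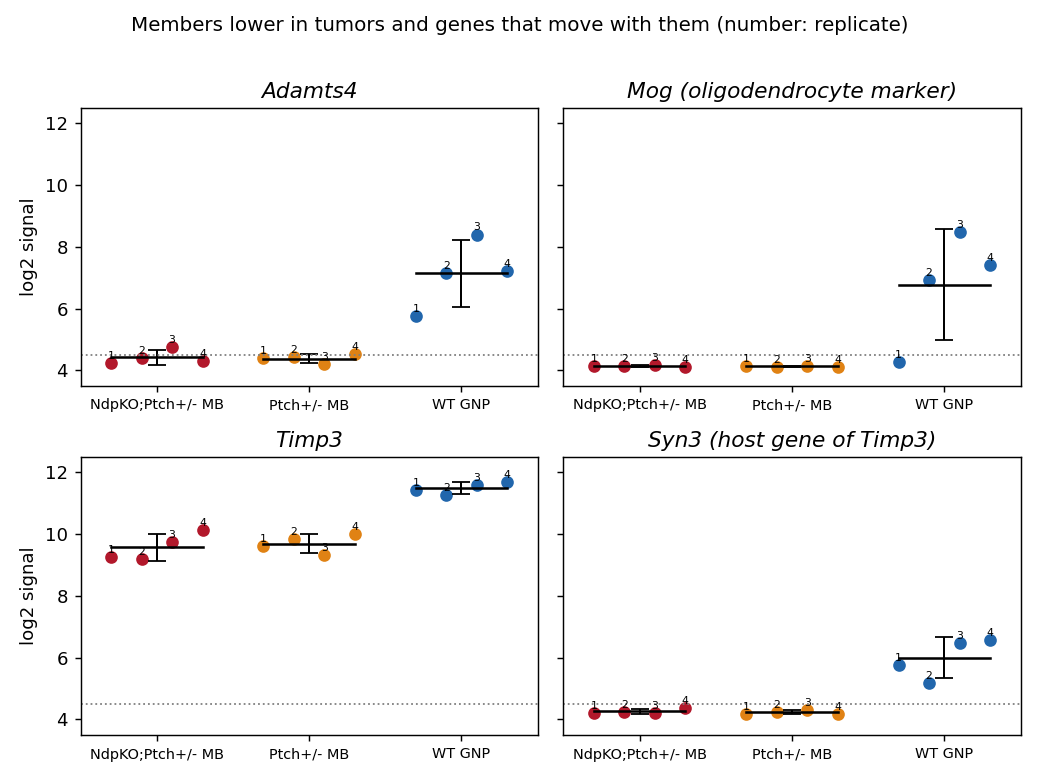
Log2 signal (vertical axis) on each of the 12 arrays of *Adamts4* beside the oligodendrocyte marker *Mog*, and of *Timp3* beside its host gene *Syn3*. Points are single arrays marked with their replicate number, bars show the mean ± SD of 4 arrays, and the dotted line is the background limit. *Mog* and *Syn3* lie under the limit in all 8 tumors, and GNP replicate 1 is the lowest GNP array for both *Adamts4* and *Mog*.

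Tumors of 1 genotype differed from each other in some members more than the groups did. Of the 26 detected members, 4 had an SD above 1 in Ptch+/- MBs, against 2 in NdpKO;Ptch+/- MBs and 1 in GNPs. The median SD was 0.472, 0.358 and 0.194. Over all probes the arrays of a group were ordered alike, with Pearson's r of 0.984 to 0.991, 0.989 to 0.993 and 0.993 to 0.996. This order is thus not particular to these members. The 4 members with an SD above 1 in Ptch+/- MBs were *Mmp3*, *Adamts18*, *Adamts19* and *Adamts12*. The last 3 were chosen for description after their values were seen. None of the 4 passed in any comparison.

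*Mmp3*, or stromelysin 1, is a secreted protease of fibroblasts and inflamed tissue that also activates other MMPs. Its upstream window is given because it holds the AP-1 core for which this promoter is known, at 46 bases before the start, along with AGGAAG at 183 bases. It lies at chr9:7445572-7445821 on the plus strand:
Mmp3: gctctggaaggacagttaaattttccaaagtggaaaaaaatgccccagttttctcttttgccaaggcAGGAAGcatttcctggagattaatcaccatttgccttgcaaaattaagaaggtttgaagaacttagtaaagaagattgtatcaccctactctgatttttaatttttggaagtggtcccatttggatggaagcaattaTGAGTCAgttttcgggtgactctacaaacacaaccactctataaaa

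*Mmp3* read 4.67, 4.26, 5.49 and 9.10 in Ptch+/- MBs and no more than 4.14 on the other 8 arrays. The signal in Ptch+/- MBs was therefore mostly that of replicate 4. Both further probes of *Mmp3* gave the same picture, with 7.77 and 8.42 in replicate 4. The difference between the tumor genotypes was -1.75 ± 0.87 (SE; limma adjusted p = 0.443). *S100a8*, a neutrophil gene, was highest in the same tumor, at 4.63, 6.78, 5.12 and 9.23 in Ptch+/- MBs and no more than 4.48 elsewhere, and *S100a9* read 6.62 there. Of the 5 measured neutrophil markers *Camp*, *Ltf* and *Mpo* were at the floor on all arrays, as were the neutrophil collagenase *Mmp8* and, in that tumor, *Mmp9*, at 4.39. The part of myeloid cells in the *Mmp3* signal was not tested.

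*Adamts18*, known from eye and vessel development, read 7.84, 8.73, 7.77 and 4.14 in Ptch+/- MBs. The fourth tumor thus lay at the floor, and it did so on all 5 probes of the gene. In NdpKO;Ptch+/- MBs it read 6.19, 7.60, 7.32 and 8.71, and in GNPs 8.43, 8.38, 8.56 and 8.84. *Adamts12*, a protease that cuts cartilage oligomeric matrix protein, read 7.70, 4.42, 7.41 and 5.23 in Ptch+/- MBs, against 6.63 to 7.87 in NdpKO;Ptch+/- MBs and 7.12 to 7.56 in GNPs, by 1 of its 3 probes. For *Adamts19*, best known from heart valves, the arrays of Ptch+/- MBs read 4.70, 6.23, 8.93 and 6.99 and those of NdpKO;Ptch+/- MBs 6.93, 4.41, 5.32 and 5.48, while GNPs stayed at 4.43 to 4.76. Within-genotype ranges for these 3 genes were wider than the differences between group means.

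**Figure D5:**
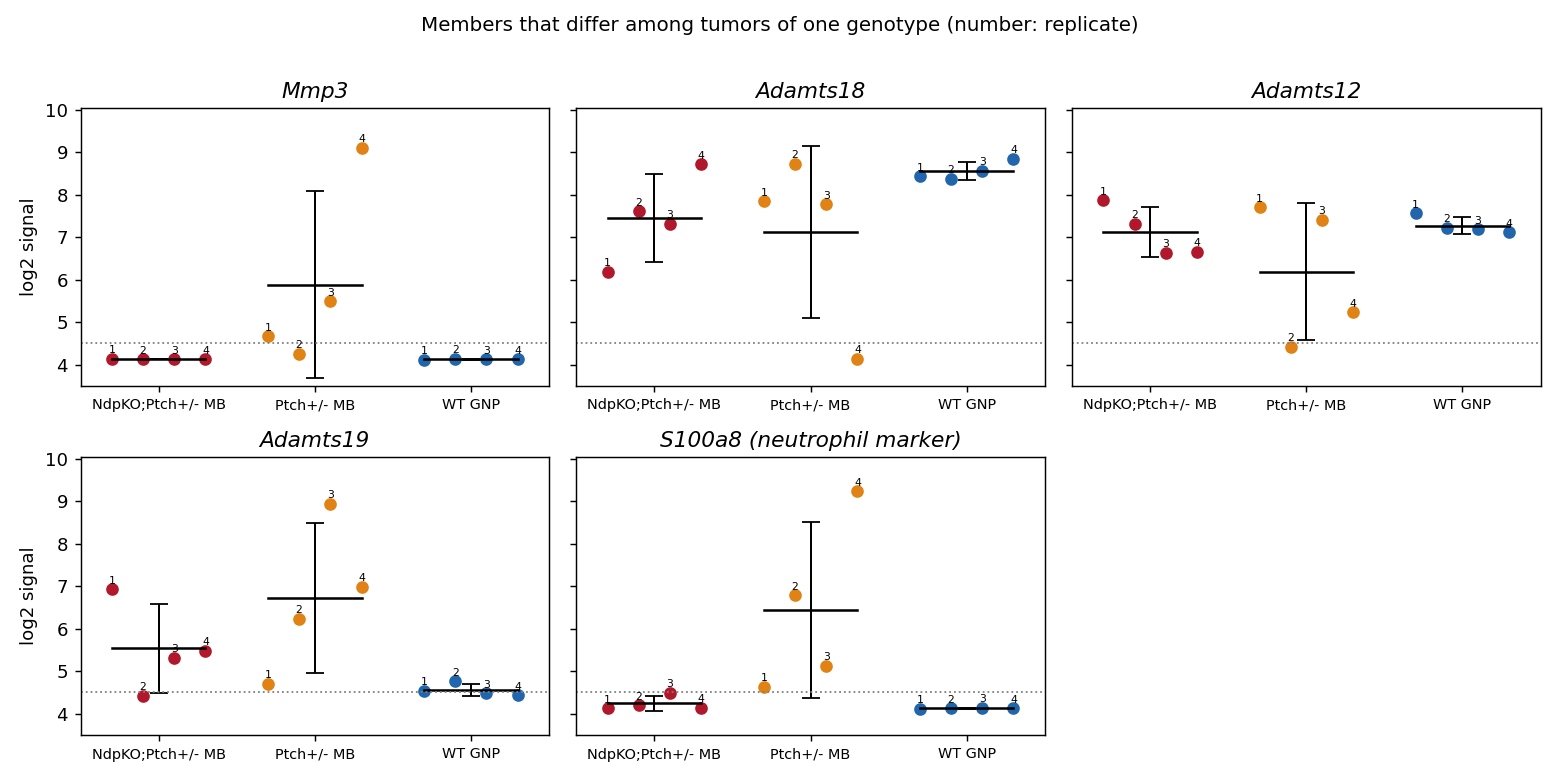
Log2 signal (vertical axis) of *Mmp3*, *Adamts18*, *Adamts12* and *Adamts19*, and of the neutrophil marker *S100a8*, on each of the 12 arrays. Points are single arrays marked with their replicate number, bars show the mean ± SD of 4 arrays, and the dotted line is the background limit. Ptch+/- MB replicate 4 is highest for *Mmp3*, at 9.10, and for *S100a8*, and at the floor for *Adamts18*, at 4.14.

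Genes that work with these proteases were taken from a list of 46 regulators, activators and relatives, of which 41 were measured and 22 detected. Between the tumor genotypes 1 was higher and 1 lower in NdpKO;Ptch+/- MBs, against 0.808% and 1.26% of all genes. Nothing can be read from counts this small. *Spock2*, which encodes a testican, an extracellular proteoglycan of the brain, read 6.44, 6.14, 5.63 and 6.63 in NdpKO;Ptch+/- MBs and 7.31, 7.82, 7.26 and 7.00 in Ptch+/- MBs, with no overlap. It was lower by -1.14 ± 0.22 (SE; limma adjusted p = 0.0422). *Pcolce2*, an enhancer of procollagen cleavage, read 5.08, 4.57, 5.21 and 4.65 against no more than 4.25 in Ptch+/- MBs, at least 1.30-fold higher (limma adjusted p = 0.0344). Neither call held throughout when arrays were left out. Of the 12 fits that left out an array each, *Spock2* passed in 2, those without replicate 4 of either tumor group, and *Pcolce2* in 3, those without NdpKO;Ptch+/- MB replicate 2, 3 or 4, with adjusted p up to 0.106 and 0.0812 in the others.

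Against GNPs, 2 of the 41 were higher and 3 lower in Ptch+/- MBs, against 10.3% and 10.9% of all genes. In NdpKO;Ptch+/- MBs 0 were higher and 8 lower, against 7.69% and 7.98%. The 8 included all 3 testicans. *Spock3* read 9.17, 8.96, 7.36 and 7.34 in GNPs and no more than 4.19 in tumors, at least 13.1-fold lower in both groups (limma adjusted p = 0.000106 in Ptch+/- MBs and 0.000150 in NdpKO;Ptch+/- MBs). *Spock2* read 8.46 to 8.59 in GNPs and was lower by -2.30 in NdpKO;Ptch+/- MBs (limma adjusted p = 0.000147) and by -1.17 in Ptch+/- MBs (limma adjusted p = 0.00567). *Tspan14* and *Tspan17*, tetraspanins that carry *Adam10* to the surface, fell by 0.37 and 1.25 on the log2 scale in NdpKO;Ptch+/- MBs (limma adjusted p = 0.00522 and 0.00972), and *Plat*, the tissue plasminogen activator, fell by 0.61 (limma adjusted p = 0.0285), a call lost without NdpKO;Ptch+/- MB replicate 1, 2 or 4 or GNP replicate 2 or 3 (adjusted p up to 0.0763). *Spock1* also passed there, at 4.40 to 5.21 in GNPs (limma adjusted p = 0.0428), but in 2 of the 12 fits that left out an array, those without GNP replicate 3 or 4 (adjusted p up to 0.108 in the others). The remaining 2 of the 8, *Tspan15* and *Plaur*, were at the floor in both groups. In Ptch+/- MBs the 2 that were higher were *Lrp1*, an endocytic receptor that clears proteases and TIMPs, and *Plau*, urokinase. *Lrp1* read 4.42 to 5.43 there, close to the limit. *Plau* read 4.31 to 4.71, with a mean of 4.46, and no more than 4.22 in GNPs. Both group means of *Plau* thus lay under the limit, and no direction is read from it. *Lrp1* passed in 8 and *Plau* in 7 of those 12 fits, both being lost without Ptch+/- MB replicate 1 or GNP replicate 2, 3 or 4, and *Plau* also without GNP replicate 1 (adjusted p up to 0.0552 and 0.0727). *Reck*, a membrane inhibitor of MMPs, and *Furin*, the convertase that activates membrane-type MMPs and ADAMs, passed in none of the comparisons.

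Mean signals of the microglia and macrophage list, 7 of its 9 measured markers detected with *Itgam* and *Ptprc* at the floor, ran from 7.46 to 7.96 in NdpKO;Ptch+/- MBs, from 7.55 to 8.48 in Ptch+/- MBs and from 5.33 to 5.74 in GNPs, with 6 markers higher in each tumor group. The part of these cells in the differences from GNPs was not tested. Strain background and genotype cannot be told apart between the tumor groups as the records give them. The study's methods do state that compound mutants were set against controls of their own breeding cohort. Sex and age, which may differ between the tumor groups by the study's account, cannot be told apart from genotype either.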

How the data were processed

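RNA of 12 samples was hybridized to 1 Illumina array each. The authors processed the BeadStudio output with neqc in limma, which uses negative control probes to correct the background, then normalizes quantiles and takes log2, and the deposited log2 signals were used as they stand; the version of limma is not given in the sources used here. Quantile normalization makes the distribution of all 12 arrays alike, so general shifts in level cannot be seen. Of 45281 probes, 34885 have 1 gene symbol in GEO's platform annotation and 18 have several, which were not used to name genes. For each gene the probe with the highest mean over all arrays was used (38 of 74 members have several probes). Groups were compared in R 4.3.3 with lmFit and eBayes of limma 3.58.1, in 1 group-means model over the 12 arrays, with Benjamini-Hochberg adjustment over all probes and a threshold of 0.05. The model was tested on simulated data. Where all arrays of the dimmer group lay under 4.5, the fold is a lower bound set by that limit, and where both groups did, no fold is given.

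The members, lists and limit were chosen with earlier results of these data known. Named genes are the TIMPs, the members that passed or had the 12 smallest p between the tumor genotypes, the up to 10 largest rises and falls against GNPs among those that passed and were detected on all arrays of the brighter group, and genes that complete a count; others are said to be chosen after their values were seen. Alternatives were an intensity trend with robust prior, array weights, 2 groups only, the replicate block, dim probes left out, centring, the mean of a gene's probes, a threshold of 0.01, a log2 fold change above 1, and leaving out each of the 12 arrays. *Mmp15*, *Mmp27*, *Adam19*, *Adamts2* and *Adamts5* had no probe under these symbols and were not analysed here. Upstream sequences were taken from RefSeq (GRCm38.p6), and protein sequences were not used.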

Additional observations from a re-analysis of the deposited data

Results flagged for a closer look

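*Timp1* differed from GNPs to a different extent in the tumor genotypes. The difference between these effects, which is the tumor comparison itself, was -3.09 on the log2 scale (limma adjusted p = 0.0164), with every Ptch+/- MB above every NdpKO;Ptch+/- MB.

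In 3 of the 70 groups of 4 arrays examined, 1 array stood far from the other 3 by Dixon's criterion, which chance meets in about 1 of 20 groups. *Adam22* read 6.32 in NdpKO;Ptch+/- MB replicate 4, against 4.42 to 4.71 in the other tumors of that genotype. *Adam9* read 7.84 in Ptch+/- MB replicate 1, against 8.67 to 8.80 in the others. *Mmp28* read 4.99 in NdpKO;Ptch+/- MB replicate 2, against 4.35 to 4.40, so that 1 array lay above the background limit. The *Mmp3* and *Adamts18* values of Ptch+/- MB replicate 4 given in the report did not meet this criterion.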

How the results depend on the processing

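Between the tumor genotypes 1 member (*Timp1*) passed. The count became 2 with an intensity trend and robust prior, which added *Mmp2*, and 3 when probes under the background limit on every array were left out, which added *Mmp2* and *Timp2* over fewer tests. With arrays centred on the probes detected on all of them it was 3, of which 2 (*Adam18* and *Adamts3*) were at the floor. It was 0 in limma with only the tumors compared, with the replicate block (adjusted p of *Timp1* 0.0529) and at an adjusted p under 0.01, where 7, 8 and 8 members had an unadjusted p under 0.05. No share of all genes was computed beside these unadjusted counts. Leaving out each array in turn gave 1 to 2, *Timp1* passing each time; *Mmp2* passed without NdpKO;Ptch+/- MB replicate 4. Leaving out each array gave 6 to 9 in Ptch+/- MBs and 4 to 6 in NdpKO;Ptch+/- MBs against GNPs, and centring raised the latter from 5 to 16, of which 11 were at the floor; why centring added these was not tested. The calls of *Mmp2*, *Timp3*, *Mmp17* and *Adamts4* against GNPs, and of *Timp1* in Ptch+/- MBs, held under all 20 alternatives run. That of *Adam17* held in 14, and was lost with the replicate block (limma).

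Values without a call changed sign for *Adam17* in Ptch+/- MBs against GNPs with the mean of its probes (-0.23). Between the tumor genotypes, leaving out each array in turn gave -0.30 to 0.017 for *Timp3*, -0.053 to 0.64 for *Timp4* and -0.66 to 0.032 for *Mmp17*, whose signs turned without NdpKO;Ptch+/- MB replicate 2, Ptch+/- MB replicate 3 and Ptch+/- MB replicate 3. With a limit of 5, the members above background were 18, 20 and 18 in the 3 groups. No clear pairing of the samples by replicate number was seen. Deviations of same-numbered arrays correlated between -0.214 and 0.142 over 12 pairs, of which 1 exceeded 0.1. Those of other arrays correlated between -0.186 and 0.292 over 36 pairs. A weaker effect shared by same-numbered arrays cannot be seen in this way. The block changed no other call of the members in the 3 comparisons. Among the partner genes, an alternative chosen after seeing the data, it left 0 of 2 calls between the tumor genotypes (adjusted p = 0.114 for *Spock2* and 0.0887 for *Pcolce2*), 5 of 5 in Ptch+/- MBs and 7 of 8 in NdpKO;Ptch+/- MBs against GNPs, where *Spock1* was lost (limma adjusted p = 0.0621). The number of arrays limits the precision, and signals near the floor carry no direction.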
